A study of Homo sapiens with 4 samples.

Results

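The APOBEC3 genes encode 7 cytidine deaminases, named APOBEC3A, APOBEC3B, APOBEC3C, APOBEC3D, APOBEC3F, APOBEC3G and APOBEC3H. They were taken as the 7 rows of the gene count files with those symbols, out of 61228 genes counted. The libraries came from H1792, an established human lung cancer cell line whose genotype is labelled WT. Cells had been kept for 96 h with the solvent DMSO (2 libraries) or with ACBI1 (2 libraries), at a dose the labels give as 1 mM, which is high for a molecule of this kind and cannot be checked from the counts. ACBI1 is a PROTAC, a molecule that brings the VHL ubiquitin ligase to SMARCA2, SMARCA4 and PBRM1, which are subunits of the SWI/SNF chromatin remodelling complexes, so that these proteins are degraded. It acts on protein, so transcript counts do not check the treatment labels. The comparison examined here asks how APOBEC3 transcripts differed between cells with and without the degrader.

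APOBEC3 enzymes convert cytosine to uracil in single-stranded DNA. Each has a zinc-binding catalytic motif built on a histidine, a glutamate and a pair of cysteines, and some members carry a second, non-catalytic copy of the domain. APOBEC3D, APOBEC3F, APOBEC3G and APOBEC3H are known for restricting retroviruses, while APOBEC3A and APOBEC3B are known as sources of C-to-T and C-to-G mutations in epithelial tumours, lung cancers among them. Uracil left in DNA is removed by the glycosylase UNG and repaired through an abasic site. Interferon is known to induce several members, and NF-kB and the MYBL2, E2F and DREAM factors are known to control APOBEC3B.

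Counts assigned to genes were 64281850 to 86010100 per library, and 26491 to 27778 genes had a count. Levels are given as CPM, counts per 1000000 counts after TMM scaling of the libraries. The labels number the libraries as replicates and do not say whether they were separate cultures, so the spread between them may be technical. Of 11 leukocyte marker genes, 4 had 0 counts in every library (CD3D, CD3E, CD2 and MS4A1), and the summed level of the 11 was 0.504 and 1.18 CPM with DMSO and 0.681 and 0.564 CPM with ACBI1. Of 10 lung adenocarcinoma and epithelial markers 6 were tested. The keratins KRT7, KRT8, KRT18 and KRT19, 4 of these 6, were called lower with ACBI1, beside 10.6% of all genes tested. KRT7, KRT18 and KRT19 were not called at an adjusted p threshold of 0.01. Without ACBI1 replicate 1 the log2 change of KRT18 moved from -1.14 to -0.97, and its call was lost. The epithelial adhesion protein EPCAM was at 5.38 and 2.78 CPM with DMSO and at 15.6 and 4.84 CPM with ACBI1 and was not called (edgeR adjusted p 0.179). NAPSA, a lung protease, was not called either (edgeR adjusted p 0.212). The lung lineage factor NKX2-1 was at 0 counts in every library. CDH1, SFTPB and SFTPC had too few counts for the test. The 10 markers summed to 982 and 1035 CPM with DMSO and to 323 and 202 CPM with ACBI1. KRT7 was the largest part of the DMSO sums, at 678 and 680 CPM, and was at 179 and 60.3 CPM with ACBI1, so the sums do not speak for all 10 markers. The part of this difference in the results on APOBEC3 genes was not tested.

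The 7 genes lie on the plus strand of chromosome 22, within 22:38952741-39104067 in GRCh38 (GENCODE 29), a stretch of 151327 bases between CBX6 and CBX7. They arose by duplication and remain alike, which bears on how well reads can be given to a member. The coding stretch that holds the catalytic motif nearest the end of the protein is shown for each member, 5′ to 3′, from the longest annotated coding sequence. Capitals mark the codons of the histidine and glutamate and, further on, of the proline, first cysteine and last cysteine of the motif.
APOBEC3A: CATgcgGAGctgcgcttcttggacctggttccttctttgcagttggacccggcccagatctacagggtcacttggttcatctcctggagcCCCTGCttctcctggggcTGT
APOBEC3B: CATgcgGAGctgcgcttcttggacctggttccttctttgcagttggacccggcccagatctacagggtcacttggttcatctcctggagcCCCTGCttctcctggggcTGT
APOBEC3C: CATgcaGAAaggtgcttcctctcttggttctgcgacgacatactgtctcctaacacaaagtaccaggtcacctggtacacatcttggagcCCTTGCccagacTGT
APOBEC3D: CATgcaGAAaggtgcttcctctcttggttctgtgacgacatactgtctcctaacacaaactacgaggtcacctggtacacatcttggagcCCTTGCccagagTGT
APOBEC3F: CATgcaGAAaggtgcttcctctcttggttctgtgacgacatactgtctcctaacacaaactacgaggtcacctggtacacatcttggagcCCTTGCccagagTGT
APOBEC3G: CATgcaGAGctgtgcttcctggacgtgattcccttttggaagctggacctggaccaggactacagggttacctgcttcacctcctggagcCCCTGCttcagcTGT
APOBEC3H: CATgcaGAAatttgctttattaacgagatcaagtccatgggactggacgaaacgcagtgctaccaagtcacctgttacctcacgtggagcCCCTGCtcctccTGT

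The stretches of APOBEC3A and APOBEC3B were identical over all 111 bases, and those of APOBEC3D and APOBEC3F over all 105. APOBEC3C differed from APOBEC3D and from APOBEC3F at 4 of 105 bases. The stretches of APOBEC3A and APOBEC3B are longer after the first cysteine, so the remaining pairs were compared over the 96 bases up to and including its codon. There APOBEC3G was nearest to APOBEC3A and APOBEC3B, with 78 bases equal to each, and had 56 equal to APOBEC3C, APOBEC3D or APOBEC3F. APOBEC3H had 53 to 59 bases equal to each other member. A read lying inside an identical stretch has no unique place, and the count files hold reads with several alignments on a line of their own (3.52% to 5.44% of all reads listed), outside the genes.

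Over whole transcripts the same pattern was measured with windows of fixed length, since the read length is not given in the sources used here. Of the distinct windows of 75 bases in APOBEC3B transcripts, 30.7% also occurred in another APOBEC3 gene. The share was 21.1% for APOBEC3A, 16.5% for APOBEC3F, 11.0% for APOBEC3D, 5.98% for APOBEC3G and 0.249% for APOBEC3C, and no such window of APOBEC3H was shared. Counts of APOBEC3C, APOBEC3G and APOBEC3H therefore rest on mostly unshared sequence, while counts of APOBEC3B, APOBEC3A, APOBEC3F and APOBEC3D can miss reads.

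**Figure D1:**
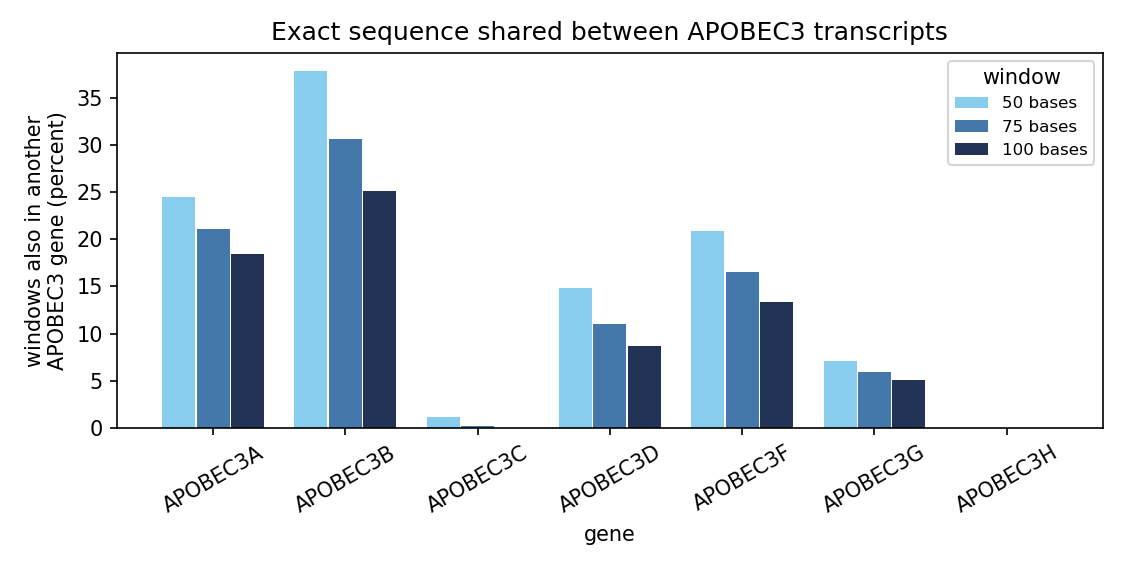
Percent of distinct windows of 50, 75 or 100 bases in the GENCODE 29 transcripts of each APOBEC3 gene (x axis) that also occur, without mismatch, in a transcript of another APOBEC3 gene (y axis). APOBEC3B had the highest share at each window length, and APOBEC3H had none.

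Annotation adds a further limit for some members. In GENCODE 29, exons of other genes cover 83.2% of the exonic length of APOBEC3D (2528 bases), all of it by AL022318.4, a gene joining an exon within APOBEC3C to those of APOBEC3D. Other genes cover 23.3% of the exonic length of APOBEC3B and 14.8% of that of APOBEC3A. Exons of APOBEC3A and APOBEC3B overlap each other. The antisense gene APOBEC3B-AS1, which had 1 or 2 counts per library, overlaps exons of both. Other genes cover 0.603% of the exonic length of APOBEC3C and none of that of APOBEC3F, APOBEC3G or APOBEC3H. The count files hold a row with the Ensembl identifier of AL022318.4, with 0 counts in every library. The annotation release and strand setting behind the counts are not given in the sources used here, and whether reads in such exons were set aside as ambiguous was not tested.

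With ACBI1, transcripts of APOBEC3G fell about 5-fold, and no other member passed the test in either direction. APOBEC3C and APOBEC3B made up most of the APOBEC3 counts in every library. The mean level of APOBEC3B was 14.0 ± 1.80 CPM in DMSO libraries and 14.1 ± 4.08 CPM in ACBI1 libraries (SD, n = 2). APOBEC3A and APOBEC3H were at or near 0 counts. Of the 7 members, 5 passed the filter on low counts and were tested; APOBEC3A and APOBEC3H were not.

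The quasi-likelihood test of edgeR was run on 19159 genes, of which 17.4% were called at a Benjamini-Hochberg adjusted p under 0.05, 6.75% higher and 10.6% lower with ACBI1. Of the 5 tested members 1 was called, and it was lower; 2 had an unadjusted p under 0.05, as had 33.9% of all genes tested, and DESeq2 and limma-voom likewise called APOBEC3G alone. After TMM scaling the libraries of the groups did not overlap, with ACBI1 lower, in 4 of the 5 (APOBEC3C, APOBEC3D, APOBEC3F and APOBEC3G). Such a separation was found in 32.2% of all genes tested, and for a single value the smallest p that an exact permutation test of 2 against 2 libraries allows is 0.33. For APOBEC3D the separation was lost when libraries were scaled by size alone. The median log2 change of the 5 tested members was -0.60, beside 0.0080 over all genes tested. Fewer cells that express a gene and less RNA per cell cannot be told apart in such bulk libraries.

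APOBEC3G, a cytoplasmic enzyme with a catalytic and a non-catalytic domain that is packaged into retroviral particles, lies at 22:39077005-39087743. DMSO replicates 1 and 2 held 188 and 113 counts of it, whereas ACBI1 replicates 1 and 2 held 46 and 16. These correspond to 2.31 and 1.57 CPM with DMSO and to 0.514 and 0.244 CPM with ACBI1. Both ACBI1 libraries lay below both DMSO libraries, and the lower DMSO library was above the higher ACBI1 library by more than the gap within either group. The means were 1.94 ± 0.522 and 0.379 ± 0.191 CPM (SD, n = 2). The log2 change was -2.33 (SE 0.49, 95% interval -3.53 to -1.14), a level 5.04-fold lower with ACBI1 (edgeR adjusted p 0.0273). Without ACBI1 replicate 2, the library with the fewest APOBEC3G counts, the log2 change was -1.92 and the call was lost (edgeR adjusted p 0.0721, with 1 ACBI1 library assumed to vary like the others). Without ACBI1 replicate 1 it was -2.98 (edgeR adjusted p 0.0271).

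**Figure D2:**
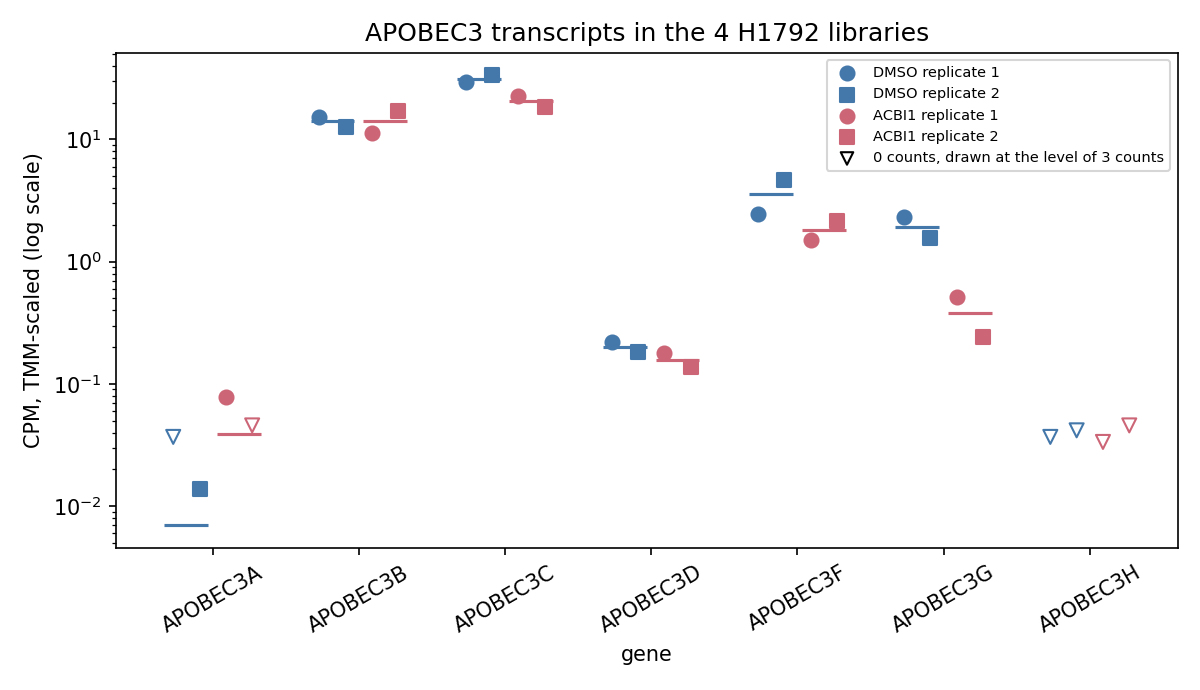
TMM-scaled CPM (y axis, log scale) of the 7 APOBEC3 genes (x axis) in 2 DMSO libraries (blue) and 2 ACBI1 libraries (red); circles are replicate 1, squares replicate 2, horizontal lines group means, and open triangles stand for 0 counts. APOBEC3G shows the widest gap between the groups, and the APOBEC3B libraries interleave.

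APOBEC3C, a small enzyme with a single domain that is made in many tissues, lies at 22:39014083-39020352 and had the most counts of the family. It had 2392 and 2401 counts with DMSO, or 29.4 and 33.4 CPM in replicates 1 and 2. With ACBI1 it had 2047 and 1212 counts, or 22.9 and 18.5 CPM. The 4 values ran from 18.5 to 33.4 CPM, with both ACBI1 libraries below both DMSO libraries. The means of 31.4 ± 2.83 and 20.7 ± 3.10 CPM (SD, n = 2) gave a log2 change of -0.60 (SE 0.19, 95% interval -1.06 to -0.14) that was not called (edgeR adjusted p 0.0774). When every gene with a count was kept in the fit, the adjusted p was 0.0445, and APOBEC3C was called lower.

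APOBEC3B, which enters the nucleus and is the member most often linked to mutation in tumours, lies at 22:38982347-38992804. It had 1246 and 918 counts, or 15.3 and 12.8 CPM, in DMSO replicates 1 and 2. In ACBI1 replicates 1 and 2 it had 1003 and 1113 counts, or 11.20 and 16.98 CPM. The lowest and the highest of the 4 levels were both ACBI1 libraries, so the groups overlapped. The log2 change was 0.0050 (SE 0.26, 95% interval -0.64 to 0.65; edgeR adjusted p 0.992). The interval takes in changes of either sign. Left-out libraries moved the log2 change to between -0.33 (ACBI1 replicate 2 left out) and 0.28 (ACBI1 replicate 1 left out).

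APOBEC3A, an enzyme with a single domain and high activity that is made mainly in myeloid cells and keratinocytes, lies at 22:38952741-38992778. It had 0 and 1 counts with DMSO and 7 and 0 counts with ACBI1. All 7 ACBI1 counts came from replicate 1. The ratio of ACBI1 to DMSO counts per library size was 6.92, with a 95% exact counting interval from 0.889 to 312, which takes in no difference. A read inside its catalytic stretch cannot be told from one of APOBEC3B.

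APOBEC3F, a close relative of APOBEC3G that also restricts retroviruses, lies at 22:39040604-39053910. It had 200 and 334 counts with DMSO, which is 2.46 and 4.64 CPM, and 135 and 141 counts with ACBI1, which is 1.51 and 2.15 CPM. The groups did not overlap, but the DMSO libraries differed from each other by more than the lower of them differed from either ACBI1 library. The log2 change was -0.96 (SE 0.42, 95% interval -1.98 to 0.07; edgeR adjusted p 0.171), and without DMSO replicate 2 it was -0.43.

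APOBEC3D, a restriction factor with the same catalytic stretch as APOBEC3F, lies at 22:39021113-39033276 and had 18 and 13 counts with DMSO and 16 and 9 with ACBI1. Its level was 0.221 and 0.181 CPM against 0.179 and 0.137 CPM, and the values of the groups nearly touched. Without TMM scaling the groups overlapped, since DMSO replicate 2 had 13 of 73238474 gene counts and ACBI1 replicate 1 had 16 of 86010100. The log2 change of -0.34 (SE 0.50, 95% interval -1.55 to 0.88; edgeR adjusted p 0.686) was not called. Changes of the size seen for APOBEC3G lie outside this interval, which covers only the reads that were assigned to APOBEC3D.

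APOBEC3H, the member whose sequence is most distant and which differs in stability between human haplotypes, lies at 22:39097224-39104067. It had 0 counts in each of the 4 libraries, which allows a level of up to 0.0335 to 0.0458 CPM (3 counts per library, counting error only). No window of 75 bases in it is shared with another APOBEC3 gene.

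**Figure D3:**
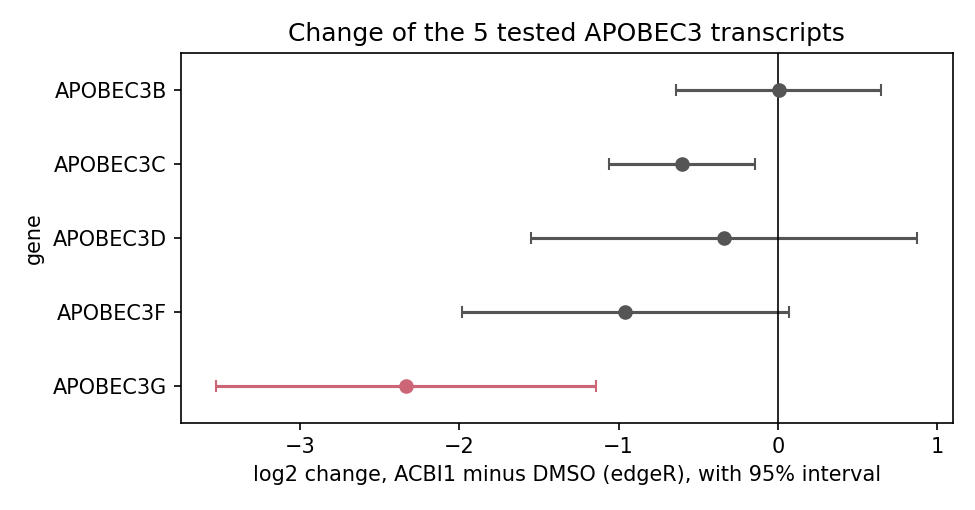
Log2 change with ACBI1 against DMSO (x axis, edgeR) of the 5 tested APOBEC3 genes (y axis), with 95% intervals as horizontal bars; the called gene is red. APOBEC3G is at -2.33, and the intervals of APOBEC3B, APOBEC3D and APOBEC3F cross 0.

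Levels were compared between members per kilobase of exonic length, as CPM per kb. With DMSO the order was APOBEC3C at 11.1 ± 1.00, APOBEC3B at 7.40 ± 0.948, APOBEC3F at 1.09 ± 0.477, APOBEC3G at 0.357 ± 0.0960 and APOBEC3D at 0.0795 ± 0.0113 CPM per kb (SD, n = 2). The libraries of neighbours in this order did not overlap. With ACBI1 APOBEC3B (7.43 ± 2.15 CPM per kb) and APOBEC3C (7.34 ± 1.10 CPM per kb) could not be ordered, since their libraries overlapped (SD, n = 2). APOBEC3F came next at 0.564 ± 0.140 CPM per kb. APOBEC3G (0.0697 ± 0.0351 CPM per kb) and APOBEC3D (0.0625 ± 0.0116 CPM per kb) also overlapped with ACBI1, whereas APOBEC3G had been above APOBEC3D with DMSO (SD, n = 2). Their order depends on the merged exonic lengths used, 5437 bases for APOBEC3G and 2528 for APOBEC3D, and other lengths were not tried. In CPM not divided by length, APOBEC3G (0.514 and 0.244) lay above APOBEC3D (0.179 and 0.137) in the ACBI1 libraries. Reads from shared sequence can be missing from these levels. Of the 75-base windows of APOBEC3D, 81.4% also occurred in another gene, and the effect of shared windows on the order was not tested.

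The 7 members together summed to 49.7 and 52.5 CPM in the DMSO libraries (replicates 1 and 2) and to 36.3 and 38.0 CPM in the ACBI1 libraries. The family total was thus lower in both ACBI1 libraries, with means of 51.1 ± 2.04 and 37.2 ± 1.16 CPM (SD, n = 2), and APOBEC3C accounted for most of the difference.

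Shares of the family's counts within a library do not depend on how libraries are scaled. APOBEC3C held 59.1% and 63.5% of APOBEC3 counts in the DMSO libraries (replicates 1 and 2), whereas it held 62.9% and 48.7% in the ACBI1 libraries. APOBEC3B held 30.8% and 24.3% with DMSO, and 30.8% and 44.7% with ACBI1. ACBI1 replicate 2 stood apart from the other libraries in this makeup, with 0.918 APOBEC3B counts per APOBEC3C count where the others had 0.382 to 0.521. The exact (Clopper-Pearson) 95% interval of its APOBEC3B share ran from 42.7% to 46.7%, and the highest upper bound in the other libraries was 32.4%. Exact intervals of shares cover counting error alone, not the spread between libraries. The mean APOBEC3B share was 10.2 percentage points higher with ACBI1, or 3.28 points without ACBI1 replicate 2, so that the size of this difference rested on that library.

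The share of APOBEC3G was lower in both ACBI1 libraries than in both DMSO libraries. It was 4.65% and 2.99% with DMSO (exact 95% intervals 4.02% to 5.34% and 2.47% to 3.58%) and 1.41% and 0.642% with ACBI1 (1.04% to 1.88% and 0.368% to 1.04%). Per APOBEC3B count there were 0.151 and 0.123 APOBEC3G counts with DMSO, and 0.0459 and 0.0144 with ACBI1. APOBEC3F held 4.95% and 8.84% with DMSO and 4.15% and 5.66% with ACBI1, and these libraries overlapped.

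**Figure D4:**
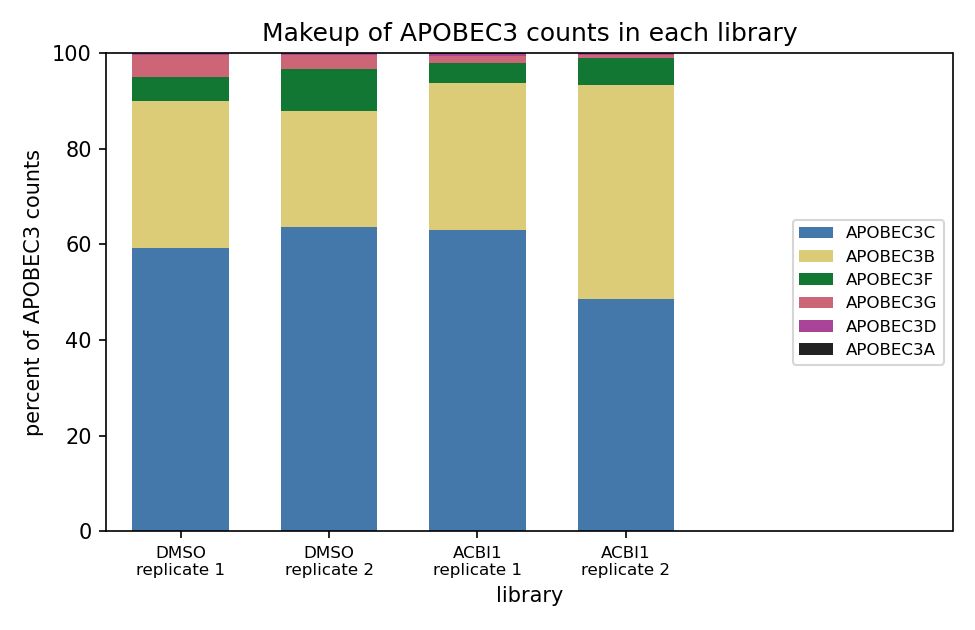
Percent of all APOBEC3 counts (y axis) held by each APOBEC3 gene in each of the 4 libraries (x axis); APOBEC3H had 0 counts. APOBEC3C and APOBEC3B fill most of each bar, APOBEC3B takes its highest share (44.7%) in ACBI1 replicate 2, and the APOBEC3G band is thinner in both ACBI1 libraries.

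The genes whose pattern was most like that of APOBEC3C, the member with the highest mean level, were BCAS3, TMSB10 and PYM1. Likeness was the distance of log2 CPM over the 4 libraries after centring each gene on its mean, among 19154 other genes, and these had distances of 0.0255, 0.0367 and 0.0516 on the log2 scale. Their log2 changes were -0.58, -0.56 and -0.63, and edgeR called none of them (adjusted p 0.0785, 0.105 and 0.108). With 4 libraries many genes come close to any given pattern.

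Among genes that remove and repair the uracil left by APOBEC3 enzymes, UNG rose about 4-fold. Of 15 genes of uracil base excision repair, all tested, 3 were called higher and none lower (6 had an unadjusted p under 0.05), with a median log2 change of 0.27. These counts stand beside 6.75% called higher and 33.9% with an unadjusted p under 0.05 among all genes tested. UNG, the main uracil glycosylase, rose from 45.8 ± 3.77 to 180 ± 8.97 CPM (SD, n = 2). Its log2 change was 1.97 (SE 0.16, edgeR adjusted p 0.00259). LIG1, the replicative DNA ligase, had a log2 change of 1.62 (edgeR adjusted p 0.00763). DUT, which keeps dUTP out of DNA, had one of 0.95 (edgeR adjusted p 0.0117). Of 8 genes for synthesis past abasic sites, PCNA, the sliding clamp of DNA polymerases, with a log2 change of 1.23 (edgeR adjusted p 0.00797), and RAD18, which ubiquitinates PCNA, with 0.75 (edgeR adjusted p 0.0485), were called higher, and the median was 0.28. The call of RAD18 was lost without DMSO replicate 2, ACBI1 replicate 1 or ACBI1 replicate 2 (edgeR adjusted p 0.169, 0.180 and 0.108).

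Of 13 MYB, E2F and RB genes, some of them known regulators of APOBEC3B, 2 were called higher and 1 lower, beside 17.4% called among all genes tested, with a median log2 change of 0.46. MYBL2, an activator that works with the DREAM partner proteins, rose from 41.7 ± 4.24 to 122 ± 22.6 CPM (SD, n = 2). Its log2 change was 1.55 (edgeR adjusted p 0.00700). E2F1, an activator of S-phase genes, had a log2 change of 1.93 (edgeR adjusted p 0.00485). CDKN1A, which encodes the CDK inhibitor p21, fell from 113 ± 42.0 to 18.9 ± 7.39 CPM (SD, n = 2; edgeR adjusted p 0.00980).

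Of 11 NF-kB and protein kinase C genes 3 were called higher and 2 lower, again beside 17.4% of all genes, with a median log2 change of 0.51. NFKB2 and RELB, the subunits of the non-canonical pathway through which APOBEC3B is induced, had log2 changes of -0.00019 (edgeR adjusted p 1.000) and 0.51 (edgeR adjusted p 0.274). NFKB2 had a change above 0 under each of the other scalings tried (upper quartile, library size only and the size factors of DESeq2), up to 0.094. MAP3K14, the kinase that starts that pathway, had a log2 change of 2.31 (edgeR adjusted p 0.00265). BIRC3, an inhibitor of it and an NF-kB target, had one of 2.16 (edgeR adjusted p 0.0154), or 1.54 without ACBI1 replicate 1. TNFAIP3, a feedback inhibitor, had one of -2.90 (edgeR adjusted p 0.00231). NFKBIA, which encodes the inhibitor IkB-alpha, had one of -0.90 (edgeR adjusted p 0.0221), a call lost without ACBI1 replicate 1 or 2 (edgeR adjusted p 0.0575 and 0.109).

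Of 10 interferon signal transducers 4 were called lower, the direction of APOBEC3G, and none higher (7 had an unadjusted p under 0.05), with a median log2 change of -0.55. Among all genes tested 10.6% were called lower and 33.9% had an unadjusted p under 0.05. IRF1, a transcription factor downstream of interferon-gamma, had a log2 change of -2.24 (edgeR adjusted p 0.00396). STAT2, a subunit of the factor ISGF3, fell from 54.7 ± 16.4 to 16.0 ± 5.18 CPM (SD, n = 2; edgeR adjusted p 0.0164). IRF9, the DNA-binding subunit of ISGF3, was at 1.01 ± 0.0958 and 0.639 ± 0.234 CPM (SD, n = 2) and was not called (edgeR adjusted p 0.319). IFNGR1, a receptor chain for interferon-gamma, had a log2 change of -1.18 (edgeR adjusted p 0.00868). IRF7, which amplifies interferon production, had one of -1.29 (edgeR adjusted p 0.0425), and its call was lost without DMSO replicate 1 or ACBI1 replicate 2 (edgeR adjusted p 0.0894 and 0.144).

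**Figure D5:**
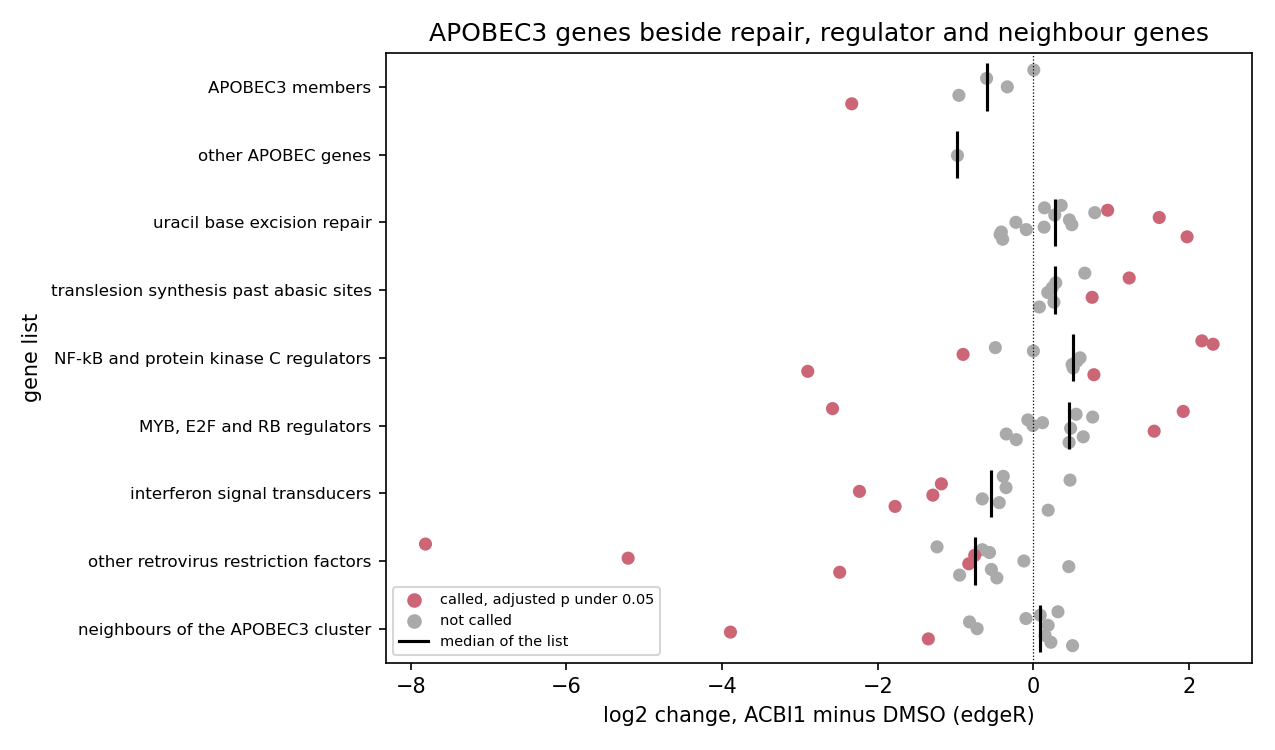
Log2 change with ACBI1 against DMSO (x axis, edgeR) of each tested gene in the APOBEC3 family and in 8 related gene lists (y axis); red points passed an adjusted p of 0.05, and black lines are list medians. Called genes of the repair and translesion lists lie above 0, and those of the interferon list lie below 0.

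The genes around the cluster on chromosome 22 did not move as a block. Of 11 neighbours, the farthest 267320 bases from the cluster, 2 were called lower and none higher (5 had an unadjusted p under 0.05), with a median log2 change of 0.09. The share called was close to the 17.4% called among all genes tested, of which 33.9% had an unadjusted p under 0.05. CBX6 and CBX7, Polycomb proteins on either side at 80427 and 16100 bases, had log2 changes of 0.32 and 0.09 (edgeR adjusted p 0.349 and 0.833). PDGFB, a growth factor gene 119292 bases beyond the cluster, fell from 17.3 ± 7.95 to 1.17 ± 0.329 CPM (SD, n = 2). Its log2 change was -3.89 (edgeR adjusted p 0.00532). SUN2, a nuclear envelope protein gene on the other side, had a log2 change of -1.35 (edgeR adjusted p 0.0221). APOBEC3G was thus the only called gene among the tested genes that lie from CBX6 to CBX7 in these lists. DESeq2 and limma-voom likewise called no uracil repair gene lower, and no interferon transducer or neighbour higher. A fit blocked on the replicate number did call 3 uracil repair genes lower, and 1 interferon transducer and 1 neighbour higher. Scaling by library size alone also called 1 neighbour higher.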

How the data were processed

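The authors deposited, per library, raw read counts per gene symbol. TopHat2 2.1.1, HTSeq 0.11.0 and build hg38 are named in the submitters' processing notes; annotation and strand setting are not given in the sources used here. The 5 closing lines that name no gene (13.9% to 15.4% of reads listed) were left out. Groups and replicate numbers came from the sample titles. Counts were filtered with edgeR's filterByExpr (minimum count 10, minimum total 15), scaled by TMM and compared by the two-sided quasi-likelihood test of edgeR 4.0.16 (R 4.3.3), on treatment only, over all 19159 genes, with Benjamini-Hochberg adjustment. SEs were derived from the log2 change and the F statistic. The procedure was tested on simulated counts in which 200 of 19159 genes were changed. It called 12.5%, 59.4% and 98.8% of log2 changes of size 1, 2 and 4. A gene that was not called may thus still have changed. Fewer genes were changed there than were called in these data, so the shares may differ here. Without molecular identifiers, intervals and floors (3 counts) speak for counting error alone. Positions, exonic lengths and transcript sequences came from GENCODE 29 (GRCh38), matched by symbol (7 of 7); windows were matched without mismatch on the transcript strand.

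Alternatives were other scalings, filters, tools (DESeq2 1.42.0, limma-voom 3.58.1), a threshold of 0.01, the replicate number as a block, and each library left out. The members and lists were chosen with earlier results of these data known. Named are all members, up to 4 called genes of a list (those that changed most), and 8 regulators or neighbours chosen by role. Some single genes that this rule would name are not reported here, and they were left out of the lists.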

Additional observations from a re-analysis of the deposited data

How the results depend on the processing

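APOBEC3G kept its direction under every alternative that gave it a value, with log2 changes from -2.98 to -1.92. The number of members called lower was 1 in the main analysis and 2 with every gene with a count kept (APOBEC3C added). It was 0 with a mean of at least 5 CPM required (APOBEC3G, APOBEC3F and APOBEC3D then leave the test). At a threshold of 0.01 it was also 0. The call of APOBEC3G was lost without ACBI1 replicate 2. No alternative called a member higher. All genes called were 2037 lower and 1294 higher, and they were 3316 and 2202 with every gene with a count kept, 611 and 172 at a threshold of 0.01, and 1151 to 2365 lower and 531 to 1434 higher with a library left out. The replicate number as a block called 3 members lower, APOBEC3G, APOBEC3C (edgeR adjusted p 0.00708) and APOBEC3F (edgeR adjusted p 0.0206). That fit called 4201 genes lower and 3708 higher, which is 21.9% and 19.4% of all genes tested. Libraries with the same number deviated together (r = 0.518 across genes, which are not independent replicates), but the labels do not say that a number marks a shared batch, and there are only 2 pairs.

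The near-zero change of APOBEC3B turned sign to -0.0074 with every gene with a count kept, -0.0080 with at least 5 CPM, -0.020 with the replicate block, -0.046 with limma-voom, and -0.33 to 0.28 with a library left out. That of NFKB2 became 0.00032 with DESeq2 size factors, 0.037 with upper quartile scaling, 0.094 with library size only, 0.0092 with the replicate block, 0.00031 with DESeq2, 0.0084 with limma-voom, and -0.31 to 0.37 with a library left out. With a library left out, CBX7 ranged from -0.023 to 0.21, and the difference in the share of APOBEC3C, -5.55 percentage points, from -12.7 to 1.57. The cause was not tested. APOBEC3A, APOBEC3D and APOBEC3H had at most 18 counts in a library, which limits the precision of their values.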

Other observations

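3 other deaminases related to APOBEC3 were not detected at this depth. APOBEC1, APOBEC2 and APOBEC4 had 0 counts in the DMSO and ACBI1 libraries. The limit set by 3 counts lay between 0.0335 and 0.0458 CPM, depending on the library. RBM47, an RNA-binding cofactor of APOBEC1 and the only gene of that list with enough counts for the test (named after its values were seen), had mean levels of 16.6 ± 6.36 CPM in DMSO libraries and 8.39 ± 1.75 CPM in ACBI1 libraries (SD, n = 2; edgeR adjusted p 0.0908). DESeq2 called it lower, and limma-voom did not. It was also called lower by edgeR with every gene with a count kept and with the replicate number as a block.

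Of 13 other genes known to restrict retroviruses, all tested, 5 were called lower and none higher, by edgeR, DESeq2 and limma-voom alike. In edgeR 8 had an unadjusted p under 0.05, and the median log2 change was -0.75. Among all genes tested 10.6% were called lower and 33.9% had an unadjusted p under 0.05. A fit blocked on the replicate number called 8 of the 13 lower and 1 higher, beside 21.9% and 19.4% of all genes tested. MX2, which blocks entry of viral DNA into the nucleus, had a log2 change of -5.21 (edgeR adjusted p 0.00257). BST2, which tethers virus particles to the cell, was counted 276 times in DMSO libraries and 1 time in ACBI1 libraries. Per library size this is a ratio of 279 (exact 95% counting interval 49.7 to 11063). In edgeR the log2 change of BST2 was -7.81, a value that the prior count affects. Leaving out ACBI1 replicate 1 moved it to -10.03, and leaving out ACBI1 replicate 2 to -7.15. TRIM22, a ubiquitin ligase, had a log2 change of -2.49 (edgeR adjusted p 0.0205), a call lost without ACBI1 replicate 1 or 2 (edgeR adjusted p 0.0620 and 0.0725). SERINC3, which lowers the infectivity of particles, had one of -0.83 (edgeR adjusted p 0.0255), a call lost without DMSO replicate 2, ACBI1 replicate 1 or ACBI1 replicate 2 (edgeR adjusted p 0.0641, 0.132 and 0.0811). SAMHD1, which depletes nucleotides (named after its values were seen), was at 113 ± 15.5 and 104 ± 10.2 CPM (SD, n = 2; edgeR adjusted p 0.678).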
